A study of Mus musculus with 2 samples.

Results

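Nodal and bone morphogenetic protein (BMP) signalling was described through 10 genes, Tdgf1, Gdf3, Nodal, Bmp4, Lefty1, Lefty2, Smad7, Id1, Id2 and Id3, in mouse induced pluripotent stem cells (iPSCs). These are somatic cells that reprogramming has returned to a pluripotent state. The genes were taken by name, and each was read from the probe sets, groups of array probes summarised to 1 value, that the platform table pairs with that gene alone. Of the 10 genes, 9 had such a probe set, on 12 probe sets in all, out of 12393 genes on the array. No probe set analysed here was paired with Lefty2 by symbol or by Entrez ID, so it has no value. The cells of both groups were grown in 2i/serum medium, in which 2i is a pair of kinase inhibitors against MEK and GSK3 that holds mouse pluripotent cells in a naive state. The groups were 1 hybridized sample and 1 live sample, with 1 array each. The labels name no strain, cell clone or age, nor the probe or target of the hybridization. The comparison asks how closely the transcript profile of hybridized cells matches that of live cells.

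Nodal, Gdf3 and Bmp4 are secreted ligands of the TGF-beta superfamily. Nodal and Gdf3 signal through activin receptors together with the coreceptor Cripto, which Tdgf1 encodes, and activate Smad2 and Smad3. BMPs signal through other type I receptors and activate Smad1, Smad5 and Smad9, and Smad4 is shared by both branches. Lefty proteins are secreted antagonists of Nodal, and Smad7 blocks the receptors from inside the cell. Lefty1, Lefty2, Nodal and Smad7 are themselves targets of the pathway, which gives feedback in both directions. Id1, Id2 and Id3 are targets of BMP signalling whose proteins bind and block basic helix-loop-helix factors. In mouse pluripotent cells Nodal signalling is autocrine, and Id genes induced by BMP help hold back neural differentiation.

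The promoters of Nodal, Id2 and Id3 were chosen for display by the array readings. Nodal gave opposite readings on its probe sets. Id2 and Id3 are targets of the same signal whose differences had opposite signs as deposited. RefSeq (GRCm38.p6) had a promoter entry for 5 of the 10 genes, running from 250 bases before to 50 after the start of the gene. Capitals mark GTCT or its reverse complement AGAC, the core of the Smad-binding element, and GGCGCC, a GC-rich element bound by BMP-activated Smads that reads the same on both strands. The motifs do not overlap in these windows. The Nodal window is chr10:61417722-61418021 on the plus strand, that of Id2 is chr12:25096043-25096342 on the minus strand, and that of Id3 is chr4:136143572-136143871 on the plus strand.
Nodal: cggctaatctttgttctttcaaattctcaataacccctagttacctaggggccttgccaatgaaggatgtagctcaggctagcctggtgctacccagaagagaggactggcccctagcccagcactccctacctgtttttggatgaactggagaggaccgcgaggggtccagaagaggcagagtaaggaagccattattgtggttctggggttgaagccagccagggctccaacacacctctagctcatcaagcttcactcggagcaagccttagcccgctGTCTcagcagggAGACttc
Id2: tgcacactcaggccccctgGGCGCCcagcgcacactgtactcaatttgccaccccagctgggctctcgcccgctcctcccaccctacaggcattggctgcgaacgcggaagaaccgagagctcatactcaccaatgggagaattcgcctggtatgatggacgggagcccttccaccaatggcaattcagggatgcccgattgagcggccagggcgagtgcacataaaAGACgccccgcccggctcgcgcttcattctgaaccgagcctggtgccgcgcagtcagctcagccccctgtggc
Id3: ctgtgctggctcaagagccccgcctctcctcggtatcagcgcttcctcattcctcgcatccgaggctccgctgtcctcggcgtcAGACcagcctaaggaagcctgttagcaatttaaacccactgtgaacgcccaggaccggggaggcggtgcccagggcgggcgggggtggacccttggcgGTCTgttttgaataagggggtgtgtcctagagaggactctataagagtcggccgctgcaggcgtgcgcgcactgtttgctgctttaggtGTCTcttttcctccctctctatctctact

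The Smad core occurred 2 times in the Nodal window, 1 time in that of Id2 and 3 times in that of Id3, and GGCGCC occurred 1 time in the Id2 window. Of 32851 RefSeq promoters of the same length, 88.0% held the Smad core and 11.9% held GGCGCC, so the Smad core is common in windows of this size. These matches are letters in a sequence and were tested neither for binding nor for a link to the array readings.

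The median over 22690 probe sets was 5.67 in the hybridized and 5.73 in the live sample. All levels below are deposited log2 values, and all differences are the hybridized value minus the live value, so 1 log2 unit is 2-fold. With 1 array a group no difference has a replicate error or a test, the number of arrays limits the precision, and every comparison describes these 2 preparations only. A gene was compared where the mean of both arrays on its brightest probe set was at least 5, which 7262 genes reached. The cells carried the markers of their label, as 10 of 10 pluripotency markers were compared, from 8.79 to 13.17 on the hybridized and from 8.94 to 13.14 on the live array, and 0 were 2-fold apart. Of other cell types, 9 of 9 markers of primitive and visceral endoderm were under the level, with 4.18 the highest value. So were 6 of 7 primitive streak and mesoderm markers, 4 of 6 trophectoderm markers and 11 of 12 fibroblast markers. The exceptions were Eomes (7.11 and 7.19), Tfap2c (12.93 and 12.24) and Col1a1, a fibroblast collagen, which was lower in the hybridized sample at 4.46 against 6.17. The 12 fibroblast markers spanned 1.74 to 4.46 there and 1.92 to 6.17 in the live sample. Among them Twist1 was under the level by its mean, but read 5.37 in the live sample against 4.15 in the hybridized sample.

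Of the 9 measured genes, 1 was higher by 2-fold or more in the hybridized sample, Smad7, and 0 were lower by 2-fold or more. Over all 7262 genes compared, 8.43% were 2-fold higher and 15.4% 2-fold lower by the same limit. All 9 reached the level, and their median difference was 0.15, with 6 above 0 and 3 below, against a median of -0.165 over all genes. At 1.5-fold, Smad7 was again the single higher gene, against 17.5% of all genes, and Nodal, Lefty1 and Id3 were lower, 3 of 9 against 29.9% of all genes. Nodal counts as lower on its brighter probe set only; as the mean of both probe sets it differed by 0.75 and would count as higher, which leaves 2 lower. The counts of members therefore lie near what the arrays show for genes at large, and the description below turns on single genes.

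**Figure D1:**
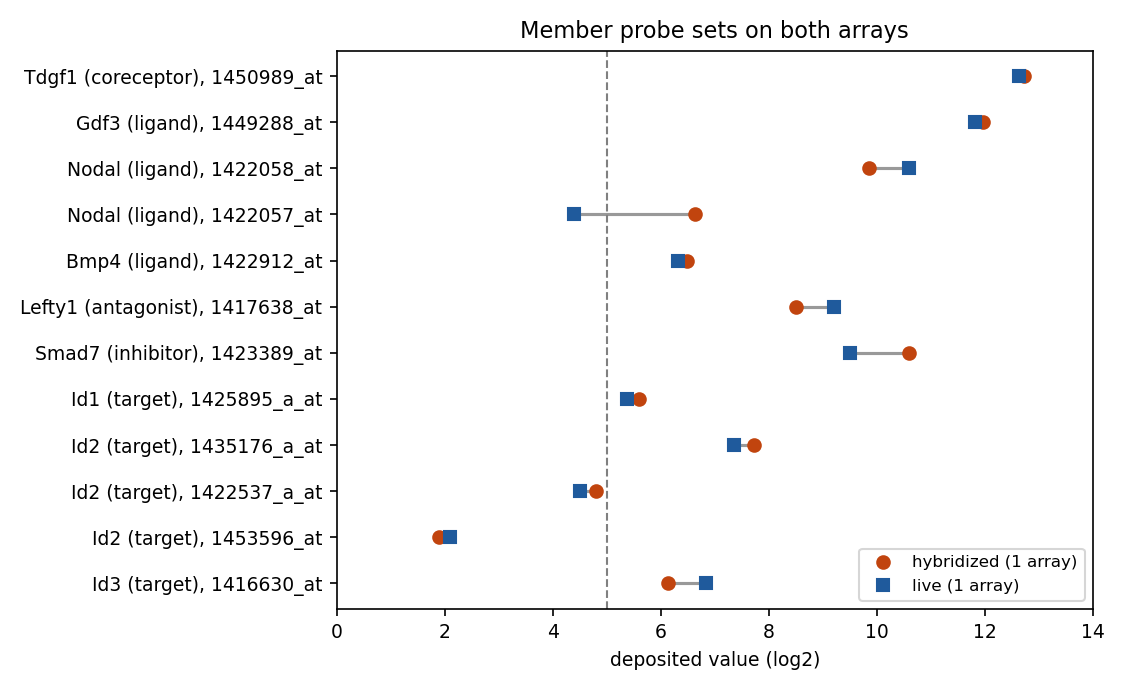
Deposited log2 value (horizontal axis) of each of the 12 member probe sets on the hybridized array (circles) and the live array (squares), joined by a line, with the role of each gene. The dashed line marks the level of 5; the longest line belongs to the dimmer Nodal probe set, from 4.39 live to 6.64 hybridized.

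The coreceptor Tdgf1 (Entrez 21667) had nearly equal signal on both arrays. It read 12.73 in the hybridized and 12.64 in the live sample, a difference of 0.09 or 1.06-fold. Among 1521 genes whose mean was 11 or higher, 86.9% were at least this far apart in either direction. RefSeq also lists pseudogenes of Tdgf1, and the sources used here do not say whether its single probe set reads them.

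Among the ligands, Gdf3 and Bmp4 differed little. Gdf3 (Entrez 14562), which is transcribed in pluripotent cells, read 11.96 in the hybridized and 11.81 in the live sample, 1.11-fold apart. Bmp4 (Entrez 12159), the ligand that supports self-renewal beside LIF, read 6.49 and 6.32, a difference of 0.17. Its level lay not far above the limit of 5, and 86.8% of the 1407 compared genes with a mean below 7 were as far apart or further. The median of those dim genes was itself below 0, at -0.51, and 23.9% of them were as high as Bmp4 or higher in difference.

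Nodal (Entrez 18119) gave opposite readings on its probe sets, which the platform table assigns to the same transcript record. Probe set 1422058_at, the brighter, read 9.85 in the hybridized and 10.60 in the live sample, so it was 1.68-fold lower in the hybridized sample. Probe set 1422057_at read 6.64 and 4.39, so it was 4.76-fold higher there, a difference of 2.25. The live value of the dimmer probe set lay under the level of 5, where values have no firm order. Averaged over both probe sets, Nodal read 8.245 and 7.495, a difference of 0.75 that has the opposite sign of the brighter probe set. No single direction for Nodal follows from these arrays.

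The gap between the Nodal readings was 3 log2 units, against a median gap of 0.60 over 2720 genes whose second probe set also reached the level. Of these genes, 39 had a gap at least as large, or 1.43%. Among the 822 genes whose second probe set averaged between 5 and 7, 2.43% did. Opposite signs alone were common, in 960 genes or 35.3%, and 617 of them were below 0 on the brightest and above 0 on the second probe set, as Nodal was, against 343 the other way round. The sources used here do not say where in the transcript each Nodal probe set lies. Control probe sets for the 5' end gained on those for the 3' end in the hybridized sample, by 2.52 for Actb, 1.81 for Gapdh and 0.50 for Tfrc. The part of this shift in the Nodal readings was not tested. Its part in the other differences given here, such as those of Smad7 and Zfp423, was not tested either.

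**Figure D2:**
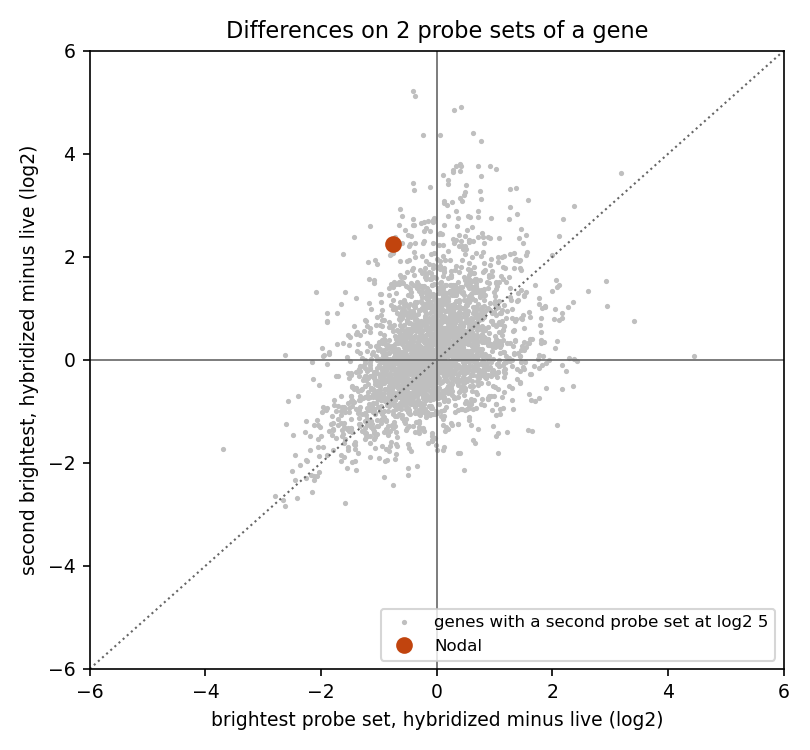
Hybridized minus live difference (log2) on the brightest probe set (horizontal axis) against that on the second brightest (vertical axis) for 2720 genes, each a grey point, with Nodal in colour and equality as a dotted line. Nodal lies at -0.75 and 2.25, in the upper left quadrant and away from the line.

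The extracellular antagonist and the intracellular inhibitor differed in sign as deposited. Lefty1 (Entrez 13590), the secreted antagonist of Nodal, read 8.50 in the hybridized and 9.21 in the live sample. It was 1.64-fold lower in the hybridized sample, and 31.3% of 2009 genes whose mean lay between 7 and 9 were as low or lower in difference. Lefty1 and Lefty2 are close relatives, and the sources used here do not say whether the Lefty1 probe set also reads Lefty2 transcripts. Smad7 (Entrez 17131), the intracellular inhibitor, read 10.60 in the hybridized and 9.50 in the live sample. It was 2.14-fold higher, the furthest from 0 of the 9 genes on their brightest probe sets. Of 2325 genes whose mean lay between 9 and 11, 163 or 7.01% had a difference at least as high, so Smad7 lay in the upper part of genes of its level without standing alone. It was measured on a single probe set, which leaves no second reading on these arrays.

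**Figure D3:**
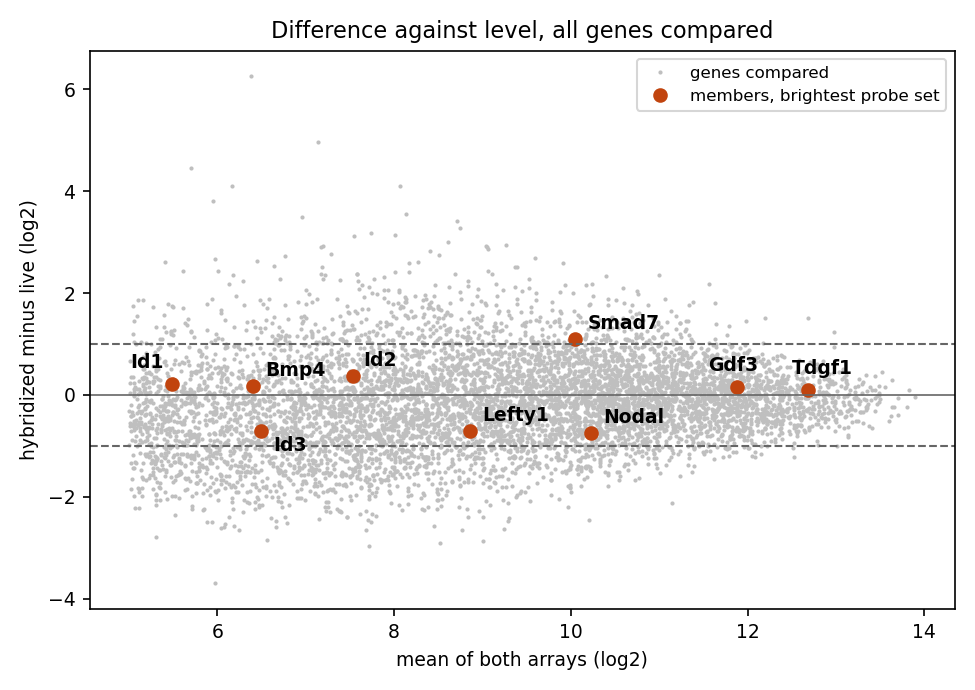
Hybridized minus live difference (log2) against the mean of both arrays (log2) for 7262 genes (grey), with the 9 members on their brightest probe set in colour and dashed lines at 2-fold. Smad7 at 1.10 is above the upper line, and the other 8 lie between the lines, from -0.75 for Nodal to 0.37 for Id2.

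The BMP targets of the Id family did not share a sign as deposited. Id1 (Entrez 15901) read 5.59 in the hybridized and 5.38 in the live sample, and Id2 (Entrez 15902) read 7.72 and 7.35 on its brightest probe set, 1.29-fold higher in the hybridized sample. The second probe set of Id2 read 4.79 and 4.50, a difference of 0.29 with the same sign, and its last read 1.89 and 2.09, at the low end of the array. Both were under the level, so they add no firm order. Id3 (Entrez 15903) read 6.14 and 6.84, which is 1.62-fold lower in the hybridized sample. Compared with genes of the same level, Id3 was not extreme, since 41.7% of the 1407 compared genes below 7 were as low or lower in difference. Id1 lay on the other side, with 22.7% of those genes as high or higher. The span from Id3 to Id2 was set by differences under 2-fold on dim to moderate probe sets.

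The sign of the smaller differences depended on the centring. The 18 hybridization controls, bacterial and phage transcripts added before hybridization to the array, had differences from -1.22 to -0.15 and a median of -0.80. Centred on them, every difference increases by 0.80 and all 9 genes are above 0, with Lefty1 at 0.09, Nodal at 0.05 and Id3 at 0.10. Smad7 (1.90), Id2 (1.17) and Id1 (1.01) are then 2-fold higher or more and 0 genes lower, while 31.8% of all genes are 2-fold higher and 2.84% lower. Centred on the median gene, Smad7 (1.265) remains the single 2-fold gene, beside 11.1% of all genes higher and 11.5% lower. A common shift leaves the order of the members as it is, and on the brightest probe sets Smad7 comes first and Id3, Lefty1 and Nodal last. The place of Nodal holds for its brighter probe set alone, since it follows Smad7 at 0.75 as the mean of both probe sets and precedes it at 2.25 on the dimmer.

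**Figure D4:**
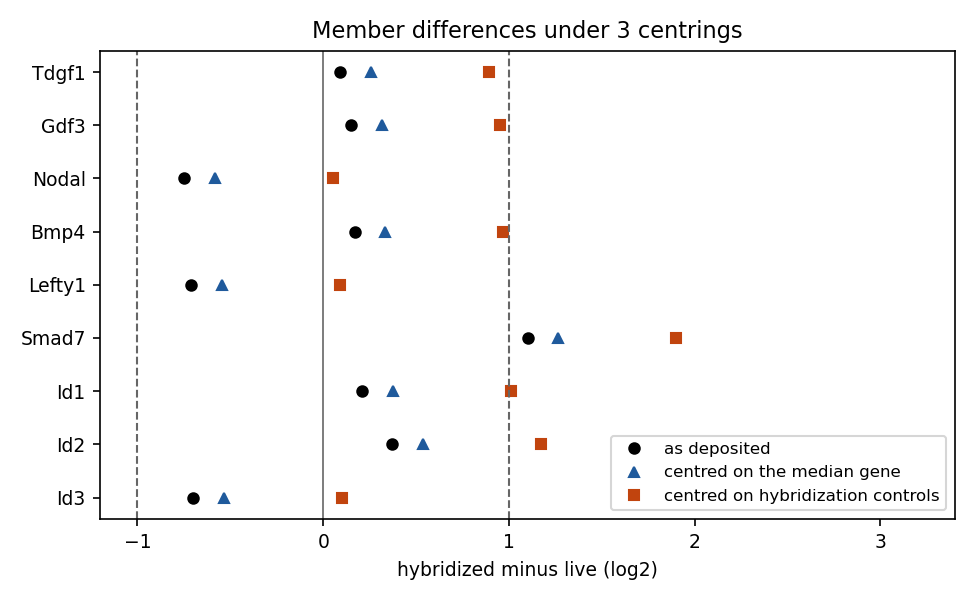
Hybridized minus live difference (log2, horizontal axis) of the 9 members on their brightest probe set as deposited (circles), centred on the median gene (triangles) and centred on the hybridization controls (squares), with dashed lines at 2-fold. Nodal, Lefty1 and Id3 are below 0 in the first 2 and at 0.05 to 0.10 in the last.

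The rest of the pathway was read from a list of 121 further genes arranged by role. Of these, 99 had a probe set of their own, and 44 were compared. By the 2-fold limit, 3 of the 44 were higher in the hybridized sample and 6 lower, or 6.82% and 13.6%, beside 8.43% and 15.4% of all genes. The median difference of the list was -0.09, beside -0.165 over all genes, and 20 genes were above 0 and 24 below. These shares are close to those of the arrays at large. Under control centring all 6 lower genes remain below 0, but only Zfp423 (-1.53) stays 2-fold lower. Differences between -0.80 and 0 in the following paragraphs turn positive there, and 17 of the 44 genes are then 2-fold higher. Among those 17 are Smad2 (1.51), Acvr2a (1.12) and Tob1 (1.74). Statements below that 0 genes of a role were 2-fold apart therefore hold for the values as deposited on brightest probe sets.

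Few other ligands reached the level. Inhbb, the activin B subunit, read 8.82 in the hybridized and 9.79 in the live sample and was the single gene of 7 measured Nodal, activin and TGF-beta ligands to be compared. Tgfb1 read 3.52 and 3.96. None of 12 other BMP-type ligands was compared, and their values ran from 1.75 to 4.73, with Bmp7 at 4.32 and 4.73 and Bmp8a at 3.68 and 4.20.

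Receptors of both branches were measured. Acvr2a, a type II receptor for activin and Nodal, read 11.11 and 10.79, and Acvr1b, the type I receptor Alk4 that Nodal uses, read 9.67 and 10. Of 5 compared receptors of this branch, 0 were 2-fold apart on their brightest probe sets, and differences ran from -0.96 to 0.63. Eng, an accessory receptor among these 5, differed by -1.82 on its second probe set. On the BMP side Acvr1, the type I receptor Alk2, was 2.20-fold lower in the hybridized sample, at 7.06 against 8.20. Bmpr1a, another type I receptor, read 10.15 and 9.54, and its second probe set was also higher in the hybridized sample, by 1.39.

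Extracellular modulators and processing enzymes included genes at both ends. Twsg1, which binds BMPs outside the cell, was 1.05 higher in the hybridized sample, at 10.15 against 9.10. Ltbp3, which binds latent TGF-beta, differed by -1.06, at 8.48 against 9.54. Fstl1, a follistatin-like secreted protein, read 9.51 and 10.08 on its brightest probe set, but its second probe set differed by 0.67. Furin and Pcsk6 encode the convertases that cleave the Nodal precursor. Furin read 10.39 and 11.05, and Pcsk6 was 2.31-fold lower in the hybridized sample, at 7.76 against 8.97.

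As deposited, the Smads that carry the signal differed by less than 2-fold. Smad4 read 10.70 in the hybridized and 11.19 in the live sample, and its second probe set differed by -0.81. Smad1 read 10.42 and 10.26. Of 6 Smads of this group 4 were compared, with differences from -0.53 to 0.71 on their brightest probe sets. Smad3 and Smad9 were under the level. Among 10 compared inhibitors and turnover factors 0 were 2-fold apart on their brightest probe sets, 6 were above 0 and 4 below, from -0.75 to 0.94. The lowest was Ctdsp2, a phosphatase named for this value, whose second probe set differed by -1.31. Fkbp1a, which holds type I receptors inactive, read 13.28 and 13.36. Ppm1a, a phosphatase of activated Smads, read 11.89 and 12.00, and its second probe set differed by 1.08. Smad6, the other inhibitory Smad, was under the level on both arrays, at 3.20 and 3.75. Skil, a feedback inhibitor induced by the pathway, read 11.31 and 10.76. Smad6 and Skil are named here as counterparts of Smad7, chosen after their values were seen.

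Nuclear partners held the 2 lowest differences of the compared genes of the list. Zfp423, a zinc finger partner of BMP-activated Smads, read 6.58 in the hybridized and 8.91 in the live sample, 5.03-fold lower. It was read on a single probe set at the level. Among the 2009 genes whose mean lay between 7 and 9, as that of Zfp423 did, 20.6% were 2-fold lower. Foxh1, the forkhead partner of Smad2 at Nodal targets, was 2.62-fold lower at 8.92 against 10.31, and its second probe set differed by -0.55. Crebbp, a coactivator, read 9.68 and 8.83. Foxh1 and the brighter Nodal probe set were lower in the hybridized sample as deposited, while the dimmer Nodal probe set was higher there. Centred on the hybridization controls, Foxh1 is at -0.59 and the brighter Nodal probe set at 0.05. Such a direction is common, since 29.9% of all genes were at least 1.5-fold lower. No link between Foxh1 and Nodal was tested.

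Other target genes had differences of both signs. Among 4 compared targets of Nodal and activin signalling, Otx2, a homeobox factor of the formative state, was 1.04 higher in the hybridized sample at 6.45 against 5.41. Pmepa1, a feedback inhibitor, read 10.27 and 10.37, with a difference of -1.06 on its second probe set, and Ctgf, listed by the platform as Ccn2, read 8.78 and 8.97. Of the other 6 measured targets, which include Mixl1, Gsc, Foxa2 and Sox17 of the primitive streak and endoderm, none was compared, and their values ran from 2.21 to 4.86. Among 6 compared BMP targets, Gata2, a GATA factor, was 1.10 higher at 6.60 against 5.50. Otx2 and Gata2 were each read on a single probe set at the level, with means of 5.93 and 6.05. Neither would be compared at a level of 7, and 7.60% of the 1407 compared genes with a mean below 7 were 2-fold higher. Dusp9, a phosphatase of ERK that BMP signalling induces in pluripotent cells, was 2.20-fold lower at 8.93 against 10.07, and differed by -1.31 on its second probe set. Tfap2c read 12.93 and 12.24, and Tbx3 read 10.95 and 11.79 with a difference of 0.28 on its second probe set.

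**Figure D5:**
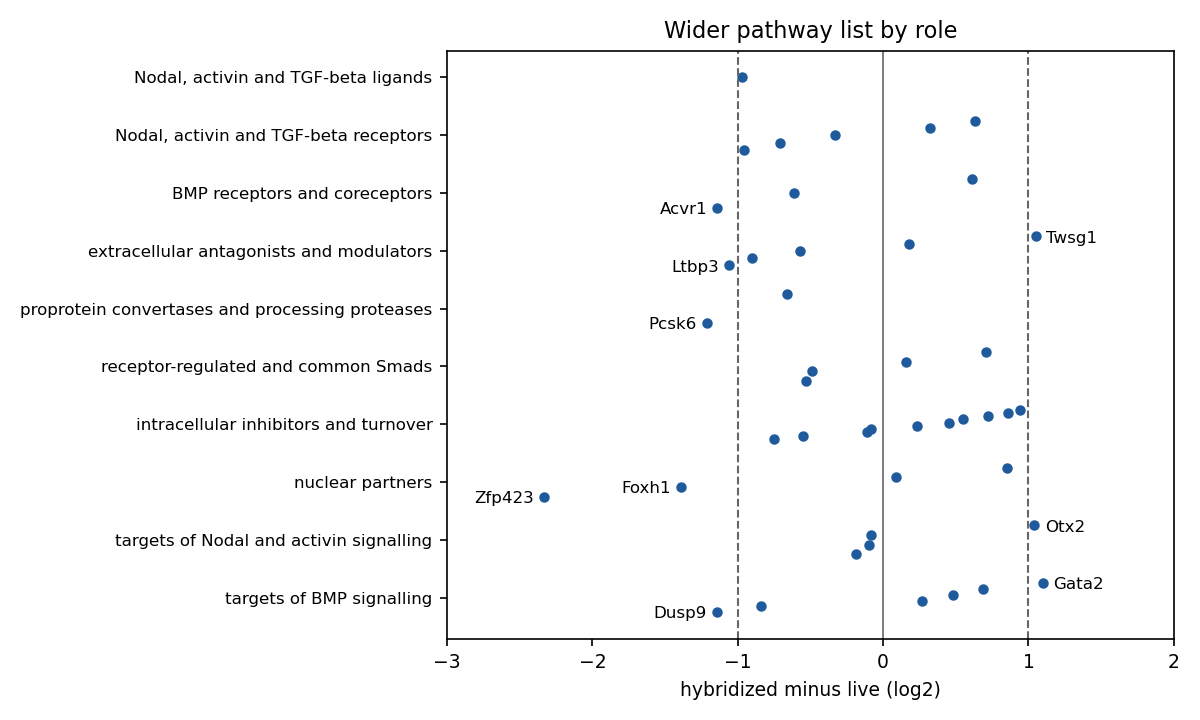
Hybridized minus live difference (log2, horizontal axis) of the 44 compared genes of the wider list, each a point, in rows by role, with dashed lines at 2-fold and names for the 9 genes past them. Points lie on both sides of 0, from -2.33 for Zfp423 to 1.10 for Gata2.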

How the data were processed

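The authors deposited a log2 value for each probe set on each array, rounded to 2 decimals. No log base is written in the file, so base 2 was inferred from GCRMA and from values between 1.02 and 14.24. Per the submitters' processing notes, GCRMA and affy were used; the sources used here give neither versions nor the set of arrays normalized together. RNA extraction used Trizol LS, and NuGEN kits amplified and biotin-labelled the cDNA, per the labels' protocols. Probe sets with 1 gene in the platform table (20380) were used, 691 with several genes and 1555 unnamed ones were not. A gene was read from its brightest probe set by the mean of both arrays, and genes with a mean of 5 or more, a set limit and not a detection call, were compared. Symbols were matched by name or through RefSeq synonyms and Entrez IDs. With 1 array a group, neither a model nor a p-value was possible.

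The members and lists were chosen with earlier results of these data known. All members are named. Of the wider list, compared genes at least 2-fold apart are named, as are the 2 genes with the highest mean in each role, compared or not. Smad2 and Tob1 are named for their values under control centring. Smad6, Skil, Smad3, Smad9, Ctdsp2, Eng, Id4, Bambi and streak genes were added after their values were seen. Likeness of patterns was not sought, since 2 arrays give a single difference. Alternatives were level limits (none, 4, 7), the mean over probe sets, leaving out suffixed probe sets, centring, quantile normalization, loess (span 0.3) and fold thresholds of 1.5 and 4; the second brightest probe set was added after the data were seen. The counting steps were tested on simulated data. Software was Python 3.11.15, with pandas 2.3.3 and numpy 2.4.6 for tables, statsmodels 0.14.6 for loess and matplotlib 3.10.9 for plots.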

Additional observations from a re-analysis of the deposited data

How the results depend on the processing

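A value of a member was taken as moved when it shifted by at least 0.73 log2 units, the SD of the gap between the probe sets of a gene divided by the square root of 2, which covers no biological error. Of 76 member values under the 10 alternatives that change or select values, 65 shifted by less and 11 by more. Many of the 65 could not pass the limit by construction. Level limits, leaving out suffixed probe sets, and averaging a gene with 1 probe set repeat the value, and median centring adds 0.165 to each. These counts are therefore no measure of stability. Smad7, the single 2-fold member, ran from 1.04 to 1.90 and was 2-fold higher in the 9 alternatives that measure it. With its single probe set it stays at 1.10 under level limits, averaging and leaving out suffixed probe sets, and each centring raises it. Only quantile normalization (1.04) and loess (1.14) could have lowered it. Of the 11, 9 came from centring on the hybridization controls and 2 from Nodal, at 0.75 as the mean over probe sets and 2.25 on the second brightest. Id1 and Id2 could not be compared without suffixed probe sets, since their probe sets at the level carry the suffix _a_at, which marks probes shared between transcripts of a gene. Id2 was also under the level as the mean over probe sets, and Bmp4, Id1 and Id3 were left out at a level of 7.

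The number of members 2-fold higher was 3 with control centring, and 0 were 4-fold higher. On brightest probe sets 3 were at least 1.5-fold lower, with Nodal among them on its brighter probe set alone. In the wider list the number 2-fold higher was 1 of 38 at a level of 7 and 1 of 35 without suffixed probe sets. Twsg1, Otx2 and Gata2 had only suffixed probe sets at the level. The gene counted without suffixed probe sets is therefore a different one. For these 2 settings and for 4-fold, no share of all genes is given. The number was 6 of 44 with median centring (11.1% of all genes), 17 with control centring (31.8%), 11 at 1.5-fold (17.5%) and 0 at 4-fold. The number 2-fold lower was 3 with median centring (11.5% of all genes), 1 with control centring (2.84%), 14 at 1.5-fold (29.9%) and 1 at 4-fold. The median of the list, -0.09, had no stable sign, at 0.71 with control centring, 0.09 as the mean over probe sets, 0.075 with median centring and 0.014 after loess. No paired analysis was possible because each group has 1 array.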

Other observations

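In the wider list, 15 compared genes were read on another probe set of at least 5, and 9 of them kept their sign there, 5 had the opposite sign and 1 a difference of 0. Id4, the Id family gene outside the named members, was 0.48 higher in the hybridized sample on its brightest probe set and differed by -0.98 on the second. Eng, an accessory receptor for TGF-beta and BMP ligands, was lower on both, with differences of -0.71 and -1.82. Bambi, a decoy receptor, read 7.49 in the hybridized and 8.39 in the live sample on a single probe set. These genes were chosen after their values were seen.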
